A study of Mus musculus with 8 samples.

Results

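The protein kinase C isoforms described here are 8 genes of the mouse array, taken by exact gene name: Prkca, Prkcb1 (now Prkcb), Prkcd, Prkce, Prkch, Prkci, Prkcq and Prkcz. They carried 17 probes in all, of which 13, with at least 1 for each gene, passed the filter on dim probes that left 33060 probes for 22634 genes. Prkcd was chosen on its values in these same arrays, in both the Jagged1 and the MRK-003 comparisons, so its values are given as a description with no test. The other 7 isoforms were taken because they belong to the family.

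Protein kinase C enzymes phosphorylate serine and threonine residues in response to lipid signals, mainly the diacylglycerol that phospholipase C releases at the membrane. Conventional isoforms (here Prkca and Prkcb1) need calcium and diacylglycerol, the calcium-independent isoforms (Prkcd, Prkce, Prkch, Prkcq) need diacylglycerol alone, and the atypical isoforms (Prkci, Prkcz) respond to neither and work with Par polarity proteins. In bone, the family carries signals of hormones such as parathyroid hormone in osteoblasts, and Prkcd is also known as a target of caspases during cell death.

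The samples were MC3T3-E1 cells, an osteoblast line from mouse skull bone, grown in co-culture with tumour cells. The 4 groups were Jagged1-overexpressing tumour cells with MRK-003, Jagged1-overexpressing tumour cells with DMSO, vector-control tumour cells with MRK-003, and vector-control tumour cells with DMSO. Jagged1 is a ligand of Notch receptors, MRK-003 inhibits gamma-secretase, the protease that frees the active part of Notch, and DMSO is its solvent. Each group had 2 samples, and the labels call the second a repeat without saying whether cultures were separate, so p-values measure only the spread between these samples. No source used here gives the tumour line, its species, the dose and duration of MRK-003, or how osteoblast RNA was separated from tumour cell RNA. All values below are log2 ratios of the co-culture (Cy3) over a common mouse reference RNA (Cy5) on a 2-colour array, so a level of 0 means equal to the reference, and levels of different probes cannot be set against each other. In co-cultures, fewer cells of a type and less RNA per cell cannot be told apart.

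Slide 1 held the first sample of every group and slide 2 the second, and each group always sat at the same position on its slide, so position and group cannot be told apart. Between 71.4% and 89.4% of spots were well above background in Cy3, with the lower shares on slide 2. On 3 arrays, both of Jagged1 with DMSO and the second of Jagged1 with MRK-003, 5 to 21 spots had local backgrounds over 1000 in either channel, and the background model fitted to them put its mean at -83.4, -259.9 and -311.9 in Cy3, against -14.7 to -3.35 on the other 5 arrays. Some ratios on these 3 arrays changed with the background used. Where they differ, values with 1 median background per array and channel (the array-median background) are given beside the local-background values. As a check of the labels, Hey1, a transcriptional target of Notch, had ratios of 3.19 and 2.78 in Jagged1 with DMSO, against -0.61 and -0.55 in vector with DMSO, and -2.11 and -0.81 in Jagged1 with MRK-003, where the second value was -2.13 with the array-median background. Jag1 itself, on its brighter probe, had 3.22 and 3.01 in Jagged1 with DMSO, against 2.15 and 1.94 in vector with DMSO. Its dimmer probe, well above background on 5 arrays, differed by only 0.06 between these groups. Under MRK-003 the brighter probe had 1.99 and 1.80 in Jagged1, against 1.83 and 2.01 in vector, so the groups overlapped. With Jagged1 this probe was itself lower under MRK-003 than under DMSO, by -1.22, so it gave no check of the Jagged1 label there. Hey1 had -2.68 and -2.15 in vector with MRK-003 (-2.70 and -2.23 with the array-median background), below both Jagged1 values. Groups under MRK-003 did not overlap for 16.5% of all probes. Notch3 had -0.26 and -0.33 in Jagged1 with DMSO, against -1.97 and -1.94 in vector with DMSO.

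Prkcd was read by 2 probes of 60 bases, shown here because the description of this gene rests on them. Both matched the same transcript and map to the minus strand of chromosome 14 in build mm7, the build of the array files. Probe 1 (A_51_P460734) lies at chr14:28025454-28025513 in 1 unbroken block. Probe 2 (A_52_P197498) lies at chr14:28030802-28031389, where its 60 bases span 588 genomic bases and so cross an intron. The 2 probes do not overlap.
Prkcd probe 1: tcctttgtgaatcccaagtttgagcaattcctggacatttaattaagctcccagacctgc
Prkcd probe 2: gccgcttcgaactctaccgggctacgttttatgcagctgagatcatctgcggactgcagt

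Prkcd was highest with Jagged1 and DMSO, intermediate with vector and DMSO, and lowest in both MRK-003 groups. Probe 1 read 0.32 and 0.28 in Jagged1 with DMSO, against -0.65 and -0.59 in vector with DMSO. The groups did not overlap, and the Jagged1 level was 1.89 times the vector level, a difference of 0.92 (SE 0.08), with SDs of 0.03 in Jagged1 and 0.04 in vector (n = 2 each). With MRK-003, where Jag1 did not separate the groups, probe 1 read -1.12 and -1.13 in Jagged1, against -1.19 and -1.23 in vector. This difference of 0.09 (SE 0.08) shrank to 0.00 with the array-median background, where Jagged1 read -1.12 and -1.30 and vector -1.20 and -1.23, and turned to -0.26 with median centring in place of loess, so the order of the MRK-003 groups was not settled.

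Prkcd ratios were lower under MRK-003 in both kinds of co-culture. With Jagged1, probe 1 read -1.12 and -1.13 under MRK-003, against 0.32 and 0.28 under DMSO, a difference of -1.42 (SE 0.08), with the MRK-003 level 2.68 times lower. With vector tumour cells it read -1.19 and -1.23 under MRK-003, against -0.65 and -0.59 under DMSO, a difference of -0.59 (SE 0.08), with the MRK-003 level 1.51 times lower. On probe 1 the Jagged1 difference was 0.83 greater under DMSO than under MRK-003. The same order held on both slides: Jagged1 minus vector in DMSO was 0.96 on slide 1 and 0.87 on slide 2, and MRK-003 minus DMSO with Jagged1 was -1.44 on slide 1 and -1.41 on slide 2. With the array-median background and Jagged1, probe 1 read -1.12 and -1.30 under MRK-003 on slides 1 and 2. It read 0.33 and 0.30 under DMSO, and the difference of the group means was -1.52. When the loess step was replaced by median centring, Jagged1 minus vector in DMSO fell to 0.53.

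Within each slide the raw brightness of probe 1 was highest in Jagged1 with DMSO and next in vector with DMSO. It was lowest in the MRK-003 groups, whose order differed between the slides. On slide 1 the mean Cy3 signal of probe 1 was 969 in Jagged1 with MRK-003, 2662 in Jagged1 with DMSO, 1035 in vector with MRK-003 and 1364 in vector with DMSO. On slide 2 the signals were 598, 1534, 558 and 959 in the same order of groups. The reference channel of probe 1 spanned 4260 to 4922 on slide 1 and 2264 to 3134 on slide 2, so the Cy3 signals were compared only within a slide.

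**Figure D1:**
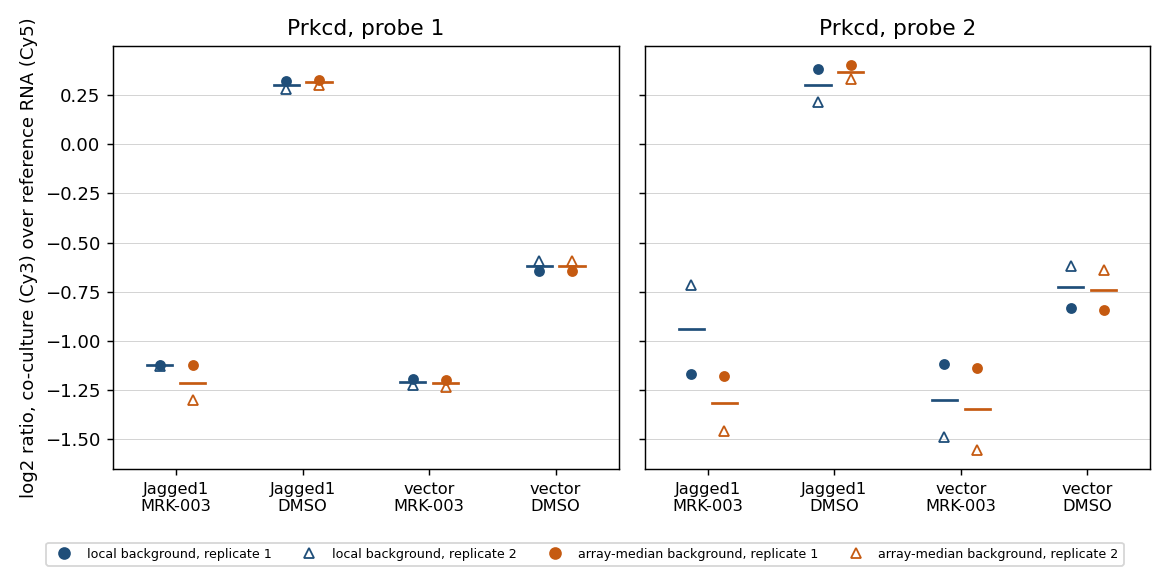
Log2 ratio of Prkcd over reference RNA (y axis) in the 4 groups (x axis) for each of its 2 probes, 1 symbol per array (circles, replicate 1 on slide 1; triangles, replicate 2 on slide 2) and a bar for the group mean, with the local background in blue and the array-median background in orange. Both Jagged1 with DMSO arrays lie above 0.2 on both probes, and all other arrays lie below -0.5.

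Probe 2, dimmer than probe 1 in Cy3, gave the same order with a wider spread. It read 0.38 and 0.22 in Jagged1 with DMSO, against -0.83 and -0.62 in vector with DMSO, a difference of 1.02 (SE 0.20). Under MRK-003 it read -1.17 and -0.72 in Jagged1, against -1.11 and -1.49 in vector, and these groups overlapped. The value of -0.72 came from 1 of the 3 arrays with the distorted background model and was -1.46 with the array-median background. The difference of MRK-003 from DMSO with Jagged1 was -1.24 (SE 0.20), or -1.68 (SE 0.17) with the array-median background, and with vector it was -0.58 (SE 0.20). Jagged1 minus vector under MRK-003 was 0.36 (SE 0.20) and became 0.03 (SE 0.17) with the array-median background. On probe 2 the Jagged1 difference was 0.66 greater under DMSO than under MRK-003 (95% interval -0.03 to 1.36), with 1.26 on slide 1 and 0.06 on slide 2. The array-median background gave 1.08, with 1.28 on slide 1 and 0.87 on slide 2.

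Among all 33060 probes, 2.03% differed by more than Prkcd probe 1, in either direction, between Jagged1 and vector in DMSO, and 0.448% did so between MRK-003 and DMSO with Jagged1. For MRK-003 against DMSO with vector the share was 0.962%, and for Jagged1 against vector under MRK-003 it was 43.3%. These shares place the gene on the array, and since the gene was chosen on these values they are no test.

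**Figure D2:**
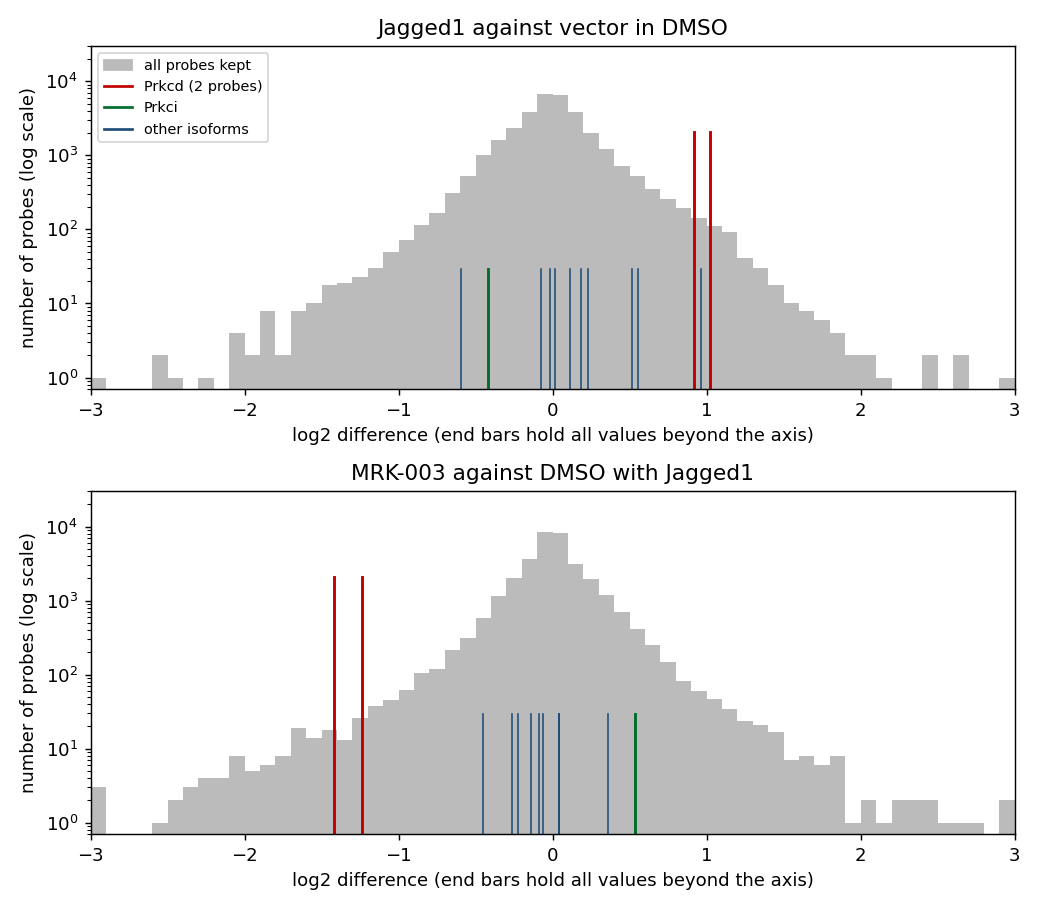
Distribution of log2 differences over all 33060 probes (grey bars, number of probes on a log axis) for Jagged1 against vector in DMSO (top) and MRK-003 against DMSO with Jagged1 (bottom), with lines at the 2 Prkcd probes (red), Prkci (green) and the other isoform probes (blue). The red lines lie at 0.92 and 1.02 in the top panel and at -1.42 and -1.24 in the bottom panel, where the green line lies on the opposite side of 0.

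In the fit across all probes (limma, Benjamini-Hochberg adjusted p under 0.05), calls were rare. Jagged1 against vector in DMSO called 3 probes (0.00907%) and MRK-003 against DMSO with Jagged1 called 61 (0.185%). Jagged1 against vector under MRK-003, MRK-003 against DMSO with vector, and the interaction each called 0%, while 239, 1062 and 597 probes had an unadjusted p under 0.05. The same count was 2618 of 33060 probes for Jagged1 against vector in DMSO, and 2449 for MRK-003 against DMSO with Jagged1. None of the 11 probes of the other 7 isoforms was called by limma in any of the 5 comparisons, and at an unadjusted p under 0.05 there were 2 for Jagged1 against vector in DMSO, 1 for MRK-003 against DMSO with Jagged1, 1 for the interaction and 0 for the remaining comparisons. The replicate number paired the samples, and with it as a block the fit called 0.23% of probes for Jagged1 against vector in DMSO and 1.46% for MRK-003 against DMSO with Jagged1, among them 1 other isoform, Prkci, in the second comparison. With the array-median background the shares were 0.145% and 1.66% without the block, with none of the 7 other isoforms among them. Adding the block gave 3.06% and 8.68%, and of these 7 isoforms Prkca, Prkci and Prkcz were called in both comparisons. Calls of Prkcd are not given.

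Prkci, the atypical isoform that works with Par3 and Par6 in cell polarity, ran opposite to Prkcd. The Jagged1 with DMSO arrays enter both comparisons in which this was seen. Prkci read -0.77 and -0.56 in Jagged1 with DMSO, against -0.29 and -0.19 in vector with DMSO. It read -0.21 and -0.05 in Jagged1 with MRK-003, and -0.16 and -0.06 in vector with MRK-003. Both Jagged1 with DMSO arrays lay below the other 6. Jagged1 minus vector in DMSO was -0.42 (SE 0.11, limma adjusted p = 0.478, 0.126 with the replicate block), and it was -0.36 to -0.48 over the 2 slides. MRK-003 minus DMSO with Jagged1 was 0.53 (SE 0.11, limma adjusted p = 0.201), and this difference passed the threshold with the replicate block (adjusted p = 0.0451). With both the block and the array-median background the 2 differences were -0.48 and 0.60 (limma adjusted p = 0.0297 and 0.0072). Under MRK-003, Jagged1 minus vector was -0.02 (95% interval -0.30 to 0.25), and MRK-003 minus DMSO with vector was 0.13 (95% interval -0.14 to 0.41).

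Prkcz, the other atypical isoform, was read by 2 kept probes that disagreed. Probe 1 read -1.65 and -1.42 in Jagged1 with DMSO, against -2.25 and -2.74 in vector with DMSO, a difference of 0.96 (SE 0.33, limma adjusted p = 0.582). With the array-median background it read -1.78 and -2.26 in Jagged1, against -2.27 and -2.83 in vector. The difference was then 0.53, and it passed the threshold with the block added (limma adjusted p = 0.0307). MRK-003 minus DMSO with Jagged1 was -0.45 (SE 0.33), or -0.59 with the array-median background (limma adjusted p = 0.0104 with the block). With the local background it was -0.04 without the first Jagged1 with MRK-003 array and -0.87 without the second, so the size rests on single arrays. Probe 2 gave 0.55 (SE 0.36) for Jagged1 minus vector in DMSO, but -0.04 (SE 0.16) with the array-median background, so its direction turned. It gave -0.23 for MRK-003 minus DMSO with Jagged1 (-0.71 to 0.26 when 1 array was left out), and 0.07 with the array-median background. Probe 1 and probe 2 lie in different parts of the gene, at chr4:154251626-154251685 and chr4:154346022-154347045 in build mm7.

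Prkca, the conventional isoform found in most tissues, was lower with Jagged1 in DMSO in both arrays. It read -0.30 and 0.07 in Jagged1 with DMSO, against 0.21 and 0.75 in vector with DMSO. It read 0.12 and 0.37 in Jagged1 with MRK-003, and 0.16 and 0.59 in vector with MRK-003. On each slide the Jagged1 with DMSO array was the lowest of the 4. Jagged1 minus vector in DMSO was -0.60 (SE 0.25, limma adjusted p = 0.63), -0.87 to -0.33 when 1 array was left out,, and -0.57 with the array-median background (adjusted p = 0.0194 with the block). MRK-003 minus DMSO with Jagged1 was 0.36 (SE 0.25) and 0.44 with the array-median background (limma adjusted p = 0.0218 with the block). Slide 2 read higher than slide 1 in all 4 groups, and the SE without the block includes this gap.

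**Figure D3:**
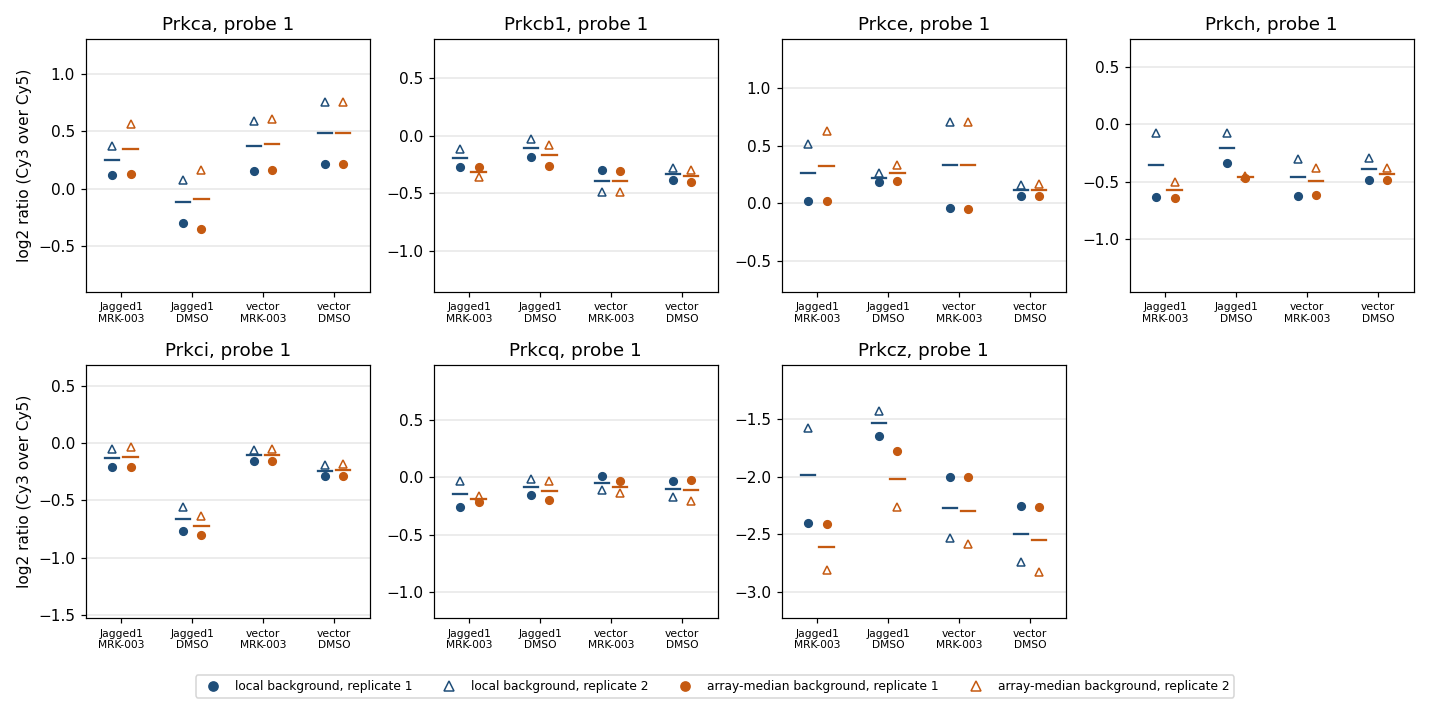
Log2 ratio over reference RNA (y axis, every panel spanning the same range of values) in the 4 groups (x axis) for the brightest kept probe of each of the 7 isoforms other than Prkcd, with symbols, bars and colours for replicate, group mean and background correction. Prkci is lowest in both Jagged1 with DMSO arrays, at -0.77 and -0.56, and Prkcq spans the narrowest set of values around 0.

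Prkcb1, the other conventional isoform described here and known from B cell receptor signalling, read -0.18 and -0.02 in Jagged1 with DMSO, against -0.39 and -0.28 in vector with DMSO, a difference of 0.23 (SE 0.12). Its difference for MRK-003 against DMSO with Jagged1 was -0.09 (95% interval -0.37 to 0.20), and -0.15 with the array-median background. The groups did not overlap for Prkcb1 in DMSO, as for 47.3% of all probes.

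Among the calcium-independent relatives of Prkcd, none of the 3 others passed the test. Prkce was read by 3 kept probes. Its probe 1, well above background on all arrays, read 0.18 and 0.26 in Jagged1 with DMSO, against 0.06 and 0.16 in vector with DMSO. It read 0.02 and 0.51 in Jagged1 with MRK-003, and -0.05 and 0.70 in vector with MRK-003, so in both MRK-003 groups the slides lay further apart than the group means. Prkce probe 2 gave 0.51 (SE 0.29) for Jagged1 minus vector in DMSO, but 0.11 (SE 0.10) with the array-median background, and was well above background on 7 of 8 arrays. Prkce probe 3 gave -0.08 (SE 0.21) for the same comparison, and 0.04 (SE 0.16) with the array-median background.

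Prkch, known from surface epithelia, read -0.34 and -0.08 in Jagged1 with DMSO, against -0.49 and -0.30 in vector with DMSO. The difference of 0.19 (SE 0.22) became -0.03 (SE 0.11) with the array-median background. Prkcq, the isoform of T cell receptor signalling, was read by 2 kept probes. Probe 1 read -0.15 and -0.01 in Jagged1 with DMSO, against -0.03 and -0.17 in vector with DMSO. Its difference was 0.02 (95% interval -0.27 to 0.31), and for MRK-003 against DMSO with Jagged1 it was -0.06 (95% interval -0.35 to 0.23). Probe 2 read 0.15 and 0.04 in Jagged1 with MRK-003, against 0.10 and 0.00 in Jagged1 with DMSO, and the 0.04 became 0.59 with the array-median background. Its MRK-003 minus DMSO difference with Jagged1 was 0.04 (95% interval -0.20 to 0.28), and 0.29 (95% interval -0.11 to 0.70) with the array-median background. Prkcq probe 1 was well above background on 7 of 8 arrays and probe 2 on 5 of 8, so changes of these 2 probes rest on weak signals. Probe 2 passed the filter on dim probes only through Jagged1 with MRK-003, the only group with both arrays well above background. With the array-median background that group also had its highest mean (0.35, against 0.06 to 0.16 in the others). Its difference of 0.29 is therefore a description and no support for a rise.

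The 4 isoform probes left out as dim were 1 each of Prkcb1, Prkce, Prkcq and Prkcz. In Cy3, the Prkcb1 probe was well above background on 4 arrays and the Prkcz probe on 2, all of them on slide 1, and the Prkce and Prkcq probes on 0. The mean Cy3 signals of the 4 probes lay between 30.8 and 58.1, over local backgrounds of 23.5 to 33.0.

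Over the 11 probes of the 7 other isoforms, the arrays of Jagged1 and vector in DMSO did not overlap for 7 (5 higher and 2 lower in Jagged1), against 47.3% of all probes. MRK-003 and DMSO with Jagged1 did not overlap for 2 (2 higher and 0 lower in MRK-003), against 32.9% of all probes. With the array-median background these 2 comparisons gave 6 (4 higher and 2 lower), against 41.5% of all probes, and 5 (1 higher and 4 lower), against 44.9%, so the balance of directions under MRK-003 turned with the background. Jagged1 and vector under MRK-003 did not overlap for 2, against 16.5%, and MRK-003 and DMSO with vector for 3, against 25.2%. The array-median background gave 1, against 15.6%, and 2, against 25.2%, for these comparisons. The median size of the difference, regardless of sign, was 0.23 over the 11 probes for Jagged1 against vector in DMSO and 0.13 over all probes, and with the array-median background it was 0.11 over the 11 probes and 0.12 over all. The interaction for Prkci was -0.40 (SE 0.16) and for Prkcz probe 1 it was 0.68 (SE 0.47), and neither passed the threshold with or without the block.

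**Figure D4:**
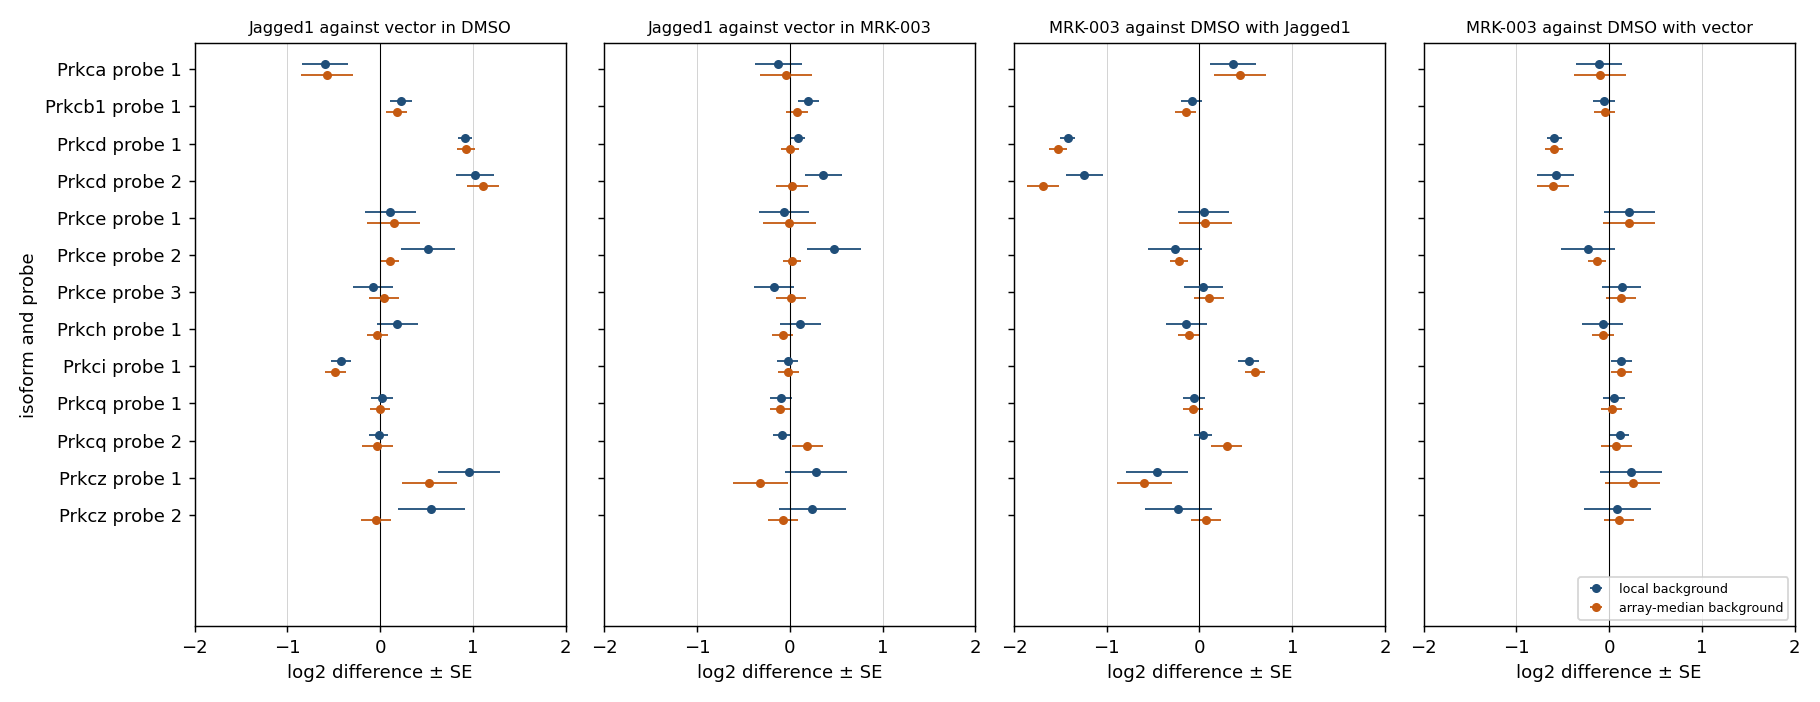
Log2 difference with its SE (x axis) for each of the 13 isoform probes (y axis) in 4 comparisons, with the local background in blue and the array-median background in orange. The 2 Prkcd probes lie at 0.92 and 1.02 in the first panel and at -1.42 and -1.24 in the third with the local background, while Prkci lies at -0.42 and 0.53.

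Over the 8 arrays, the ratio of Prkci correlated with that of Prkcd probe 1 at r = -0.94, and Prkcd probe 2 at r = 0.95. The other isoform probes had r from -0.56 (Prkca) to 0.57 (Prkce probe 2). Under the array-median background r was 0.88 for Prkce probe 2 and 0.69 for Prkcb1, and that of Prkcz probe 2 turned from 0.37 to -0.37. Of 18569 probes with a RefSeq name and Cy3 well above background on all 8 arrays, those most like Prkcd probe 1 were of Dtx4 (r = 0.995), Eif2b2 (r = 0.995), Hic1 (r = 0.994), Fam207a (r = 0.993) and Bmf (r = 0.993). These correlations are a description over 8 arrays that share 4 groups and 2 slides. Dtx4, a member of the Deltex family of Notch regulators, read 2.44 and 2.23 in Jagged1 with DMSO, against 0.61 and 0.66 in vector with DMSO, and -0.65 and -0.78 in Jagged1 with MRK-003. Bmf, a BH3-only promoter of cell death, read 1.37 and 1.21 in Jagged1 with DMSO, against -0.29 and -0.13 in vector with DMSO. Hic1, a transcriptional repressor, differed by 0.91 between Jagged1 and vector in DMSO and by -1.60 between MRK-003 and DMSO with Jagged1. Fam207a had the same order at a smaller scale, with 0.33 for Jagged1 minus vector in DMSO.

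The genes around the family were followed in a list of 58, of which 55 had a probe past the filter. The list held the phospholipases C that make diacylglycerol, the kinases that remove it, its other receptors, the related Pkn kinases, regulators of the activation state, scaffolds, and substrates. None of the 55 was called by limma in any comparison. At an unadjusted p under 0.05 there were 4 for Jagged1 against vector in DMSO, against 2618 of all 33060 probes. There were 5 for MRK-003 against DMSO with Jagged1, against 2449 of all probes, and 5 with vector, against 1062. The remaining comparisons had 0. For Jagged1 against vector in DMSO, 28 of the 55 were higher and 27 lower, with a median of 0.0055 against -0.0053 over all probes. For MRK-003 against DMSO with Jagged1, 21 were higher and 34 lower, with a median of -0.03 against -0.0021 over all probes. The array-median background gave 27 higher and 28 lower, with a median of -0.013 against 0.011 over all probes.

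Rasgrp2, an exchange factor for the GTPase Rap1, had the smallest p of the list for Jagged1 against vector in DMSO. It read 0.15 and -0.02 in Jagged1 with DMSO, against -1.32 and -1.15 in vector with DMSO, a difference of 1.30 (SE 0.39, limma adjusted p = 0.531). Rasgrp2 read -1.64 and -0.40 in Jagged1 with MRK-003, and the -0.40 became -1.54 with the array-median background. With that background its Jagged1 minus vector difference in DMSO was 1.40 (limma adjusted p = 0.0326) and its MRK-003 minus DMSO difference with Jagged1 was -1.68 (limma adjusted p = 0.00892). Prkd2, a protein kinase D, read -0.47 and -0.42 in Jagged1 with MRK-003, against -0.06 and 0.10 in Jagged1 with DMSO, a difference of -0.47 (SE 0.13, limma adjusted p = 0.334).

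Among the phospholipases C, Plcd1 read 0.70 and 0.77 in Jagged1 with MRK-003, against 1.37 and 1.36 in Jagged1 with DMSO, a difference of -0.63 (SE 0.14, limma adjusted p = 0.21). Plcg2 differed by 0.58 (SE 0.23) between Jagged1 and vector in DMSO, and by 0.21 (SE 0.09) with the array-median background. Of 12 phospholipases C kept, 9 had lower ratios and 3 higher ratios for MRK-003 against DMSO with Jagged1, with a median of -0.10 that was -0.03 with the array-median background.

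Of the substrates, Plek differed by 0.62 (SE 0.20) between Jagged1 and vector in DMSO, and by 0.21 (SE 0.15) with the array-median background. Add3, an adducin of the membrane skeleton, differed by -0.38 (SE 0.14) in the same comparison, with 1.13 and 1.12 in Jagged1 against 1.61 and 1.41 in vector. Marcksl1 differed by -0.36 (SE 0.12) between MRK-003 and DMSO with Jagged1, and the scaffold Cavin3, a binding protein of Prkcd, by 0.28 (SE 0.09). With the array-median background and the block together, 7 genes of the list were called for MRK-003 against DMSO with Jagged1, against 8.68% of all probes. They were Plcb1 at 0.90, Prkd1 at 0.54, Pkn2 at 0.51 and Marcks at 0.48 in the higher direction, and Rasgrp2 at -1.68, Plcd1 at -0.65 and Prkd2 at -0.49 in the lower.

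All 9 osteoblast markers of the list (among them Runx2, Sp7, Alpl and Col1a1) were well above background on every array. The same held for the 8 epithelial, 8 macrophage and 5 T cell markers kept, so this does not set osteoblasts apart. The mean log2 ratio of the osteoblast markers was 0.57 and 1.02 in Jagged1 with DMSO, against 0.86 and 1.30 in vector with DMSO. Of the 9, 4 had higher values in Jagged1, and 3 with the array-median background. For MRK-003 against DMSO with Jagged1, 6 of the 9 were higher under either background. Their mean difference was 0.15, and 0.26 with the array-median background. Of 10 epithelial markers 8 were kept, while Cdh1 and Cldn4 were not, and the mean log2 ratio was -2.47 and -2.02 in Jagged1 with DMSO, against -2.96 and -2.87 in vector with DMSO. With the array-median background these values were -2.71 and -2.81 in Jagged1 with DMSO, against -2.97 and -2.96 in vector with DMSO, and 8 of 8 had higher values in Jagged1. Of 8 macrophage markers 7 had higher values in Jagged1 than in vector with DMSO, with a mean difference of 0.79, and 6 had with the array-median background, with a mean difference of 0.15. Of 5 T cell markers, beside Prkcb1, Prkcq and Prkch, 5 were higher in Jagged1 with a mean difference of 0.55, and 3 with the array-median background with a mean difference of 0.05. For MRK-003 against DMSO with Jagged1, the direction in which Prkcd was lower, 0 of 8 epithelial, 1 of 8 macrophage and 1 of 5 T cell markers were higher under either background. Their mean differences were -0.24, -0.26 and -0.19, and -0.14, -0.09 and -0.07 with the array-median background. No marker was called, and their part in the differences of Prkcd, Prkci or the other isoforms was not tested.

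RefSeq promoter windows, from 250 bases before to 50 bases after each annotated start in build GRCm38.p6, were matched for 6 of the 8 isoforms: Prkca, Prkcb1, Prkcd, Prkci, Prkcq and Prkcz. They were searched on both strands for the letters TGGGAA, the core of the motif bound by RBPJ, the DNA-binding partner of Notch. Of 32851 windows in the table, 25.6% held the motif. Of the 9 windows of the isoforms, 2 did: the window of Prkci and 1 of the 3 of Prkcz. Neither of the 2 Prkcd windows held these letters, which says only that they are not in these windows. The 250 bases before the start of Prkci (chr3:30995521-30995770, plus strand) are shown with the match in capitals, as the reverse complement of the motif, beginning 163 bases before the start. The 250 bases before 1 of the 2 starts of Prkcd (chr14:30626209-30626458, minus strand) are shown as well. Any link between the motif and the direction in which Prkci, Prkcd or another isoform differed was not tested.
Prkci promoter: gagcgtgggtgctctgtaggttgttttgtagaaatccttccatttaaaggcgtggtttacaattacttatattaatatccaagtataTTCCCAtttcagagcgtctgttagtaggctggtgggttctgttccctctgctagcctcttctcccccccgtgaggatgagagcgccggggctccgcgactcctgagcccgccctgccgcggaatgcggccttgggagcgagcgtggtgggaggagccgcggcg
Prkcd promoter: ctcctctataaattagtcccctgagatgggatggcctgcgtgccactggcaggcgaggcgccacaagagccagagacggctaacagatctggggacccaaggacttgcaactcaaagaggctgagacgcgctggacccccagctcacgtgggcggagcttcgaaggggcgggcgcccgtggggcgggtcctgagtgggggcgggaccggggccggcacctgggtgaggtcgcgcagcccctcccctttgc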

How the data were processed

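The 8 two-colour arrays held the co-culture RNA in Cy3 and reference RNA in Cy5, 175 ng of RNA per sample per the labels' protocols, with no dye swap. The authors read the scans with Agilent Feature Extraction, version 9.5.3.1 per the file headers, which place probes on mm7. The intensity columns used, as deposited, were the mean signal and median local background of each spot, not normalized, and the processed signals of the scanner software. A deposited log10 ratio column ran the other way (Cy5 over Cy3) from the ratios used here, and the deposited 0 or 1 flags gave outliers and spots well above background. The authors' deposited log2 value table matched the log2 ratio of processed signals, Cy3 over Cy5, plus 1 constant per array (100% of 45018 spots within 0.02), so scale and direction were known, and its column medians were 0.12 to 0.20.

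The normexp method (offset 50) corrected the background, ratios were normalized by loess within arrays with no weight on the 1639 control spots, and spots of 1 probe were averaged. Probes with outlier marks (227) and dim probes (7811) were left out. Dim means that no group had both of its arrays well above background in Cy3. Names came from RefSeq by accession for 22951 of 41174 probes, then from current symbols and synonyms, with the file's name otherwise. Genes with several probes were represented by the brightest in Cy3 for lists, and every probe was reported for isoforms. limma 3.58.1 in R 4.3.3 fitted the means of the 4 groups to all 8 arrays, p was adjusted by Benjamini-Hochberg over 33060 probes, and the script was tested on simulated data. The number of arrays limits the precision. Deviations from group means correlated between same-numbered arrays of all 6 pairs of groups (r from 0.38 to 0.752), and the number also marks the slide, so numbers were taken as pairing the samples. The members and lists were chosen with earlier results of these data known. Named were all isoform probes, list genes that were called or had the 4 smallest p in Jagged1 against vector in DMSO or in MRK-003 against DMSO with Jagged1, and the 5 genes most like Prkcd. The genes called with the array-median background and the block were named after their values were seen. Alternatives were the replicate block, the array-median background, processed signals, median centring, no filter on dim probes, the brightest probe per gene, and leaving out each array. Protein sequences were not used here, and 1 further isoform of the family is not reported here.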

Additional observations from a re-analysis of the deposited data

How the results depend on the processing

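The Prkcd differences kept their direction in every alternative run for Jagged1 against vector in DMSO and for MRK-003 against DMSO with either tumour cell. Probe 1 gave 0.53 for Jagged1 against vector in DMSO and -0.65 for MRK-003 against DMSO with vector under median centring in place of loess, and -1.52 for MRK-003 against DMSO with Jagged1 under the array-median background (with or without the replicate block) and under processed signals. Within slides 1 and 2 it gave 0.96 and 0.87 for Jagged1 against vector in DMSO, and -0.55 and -0.63 for MRK-003 against DMSO with vector. Leaving out 1 array gave 0.89 to 0.94, -1.44 to -1.40 and -0.62 to -0.56 for these 3 comparisons. Jagged1 against vector under MRK-003 reversed to -0.016 with processed signals and -0.26 with median centring. Probes called for Jagged1 against vector in DMSO numbered 3 as reported, 48 with the array-median background, 14 with processed signals, 0 with median centring, 76 with the replicate block, 1011 with the array-median background and the replicate block (added after seeing the data), and 0 to 1 without 1 array. For MRK-003 against DMSO with Jagged1 they numbered 61 as reported, and 548, 249, 0, 484, 2869 and 0 to 10 in the same order. The last combination called 77 probes for the interaction, against 0, and leaving out 1 array gave 0 to 1 for Jagged1 against vector under MRK-003. Other isoforms called numbered 0 as reported, 1 with the replicate block for MRK-003 against DMSO with Jagged1, and 3 in each of these 2 comparisons with the block and the array-median background. Genes of the pathway list called numbered 0 as reported, 1 with the array-median background in each of the same 2 comparisons, 1 with processed signals for MRK-003 against DMSO with Jagged1, and 1 and 7 with the block added to the array-median background. The replicate block changed no other call of a list gene or of an isoform other than Prkcd. Of 55 differences of the other isoforms, 11 changed sign with the array-median background, 13 with processed signals and 9 with median centring, none of them called in either setting. Leaving out 1 array changed the sign of 0 to 16, the most without the first Jagged1 with MRK-003 array. Within slides 1 and 2, 12 and 10 had a changed sign. Cy3 signal over background limits Prkcq and probes 2 and 3 of Prkce. The causes of these changes were not tested, other than the smaller number of arrays where 1 was left out.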
